A study of Rattus norvegicus with 6 samples.

Results

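The genes described here are 10 genes that injured peripheral neurons are known for: *Atf3*, *Jun*, *Sox11*, *Smad1*, *Gap43*, *Flrt3*, *Sprr1a*, *Tgm1*, *Gadd45a* and *Ecel1*. They were taken by gene symbol from a table of 22050 genes, where each symbol matched a single row. All 10 were among the 14426 genes that passed the filter on low counts, which asks for about 0.579 CPM (counts scaled to the size of the library) in at least 3 libraries. *Sprr1a* reached that level in 0 sham and 3 SNI-NP libraries and *Tgm1* in 1 sham and 3 SNI-NP libraries, so both passed through the group in which they were high. The set was proposed with the differences between the groups in view. Its fold changes are therefore a description, and no p-value is attached to any of the 10 genes.

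RNA was sequenced from spinal cord tissue of 3 rats with spared nerve injury (SNI-NP rats) and of 3 rats after a sham operation. In this neuropathic pain (NP) model, branches of the sciatic nerve are cut while the sural branch is left intact. The animals of the study were male Sprague–Dawley rats aged 8 to 10 weeks when obtained. The time after surgery, the side and segment of the cord, and any pooling of rats are not given in the sources used here, and the p-values measure the spread between these 6 libraries.

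When a peripheral axon is cut, its cell body in the dorsal root ganglion or the ventral horn switches on a growth programme. Stress-activated transcription factors such as ATF3 and JUN come first, SOX11 and SMAD1 act in the same programme, and growth cone proteins such as GAP43, along with SPRR1A, follow. These genes are known as regeneration-associated genes, and in the spinal cord the axotomised cells are motor neurons, whereas sensory neurons send in only their central axons.

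The libraries held between 16670760 and 18151156 estimated counts. *Prx*, a gene of myelinating Schwann cells in peripheral nerve, lay between 875 and 1329 FPKM (counts scaled to transcript length and library size). *Mog*, a gene of central myelin, lay between 27.0 and 80.0 FPKM, the astrocyte gene *Gfap* between 130 and 320 FPKM, and the neuronal gene *Snap25* between 76.1 and 162 FPKM. Among motor neuron genes, *Chat* was at 1.45 to 5.71 FPKM and *Mnx1* at 0 to 0.45 FPKM. Central markers of spinal cord were thus present, with *Mog*, *Gfap* and *Snap25* below *Prx* in every library. Genes of Schwann cells and of sensory neurons were measured in tissue labelled as spinal cord, and whether it held nerve root or ganglion was not tested. The 14 markers of dorsal root ganglion neurons summed to 835, 1490 and 1727 CPM in sham rats 1, 2 and 3, and to 267, 2353 and 1675 CPM in SNI-NP rats 1, 2 and 3. SNI-NP rat 1 thus lay below every other library, and the fold change of each of the 10 genes is also given without it. In bulk tissue, fewer cells of a type and less RNA per cell cannot be told apart.

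**Figure D1:**
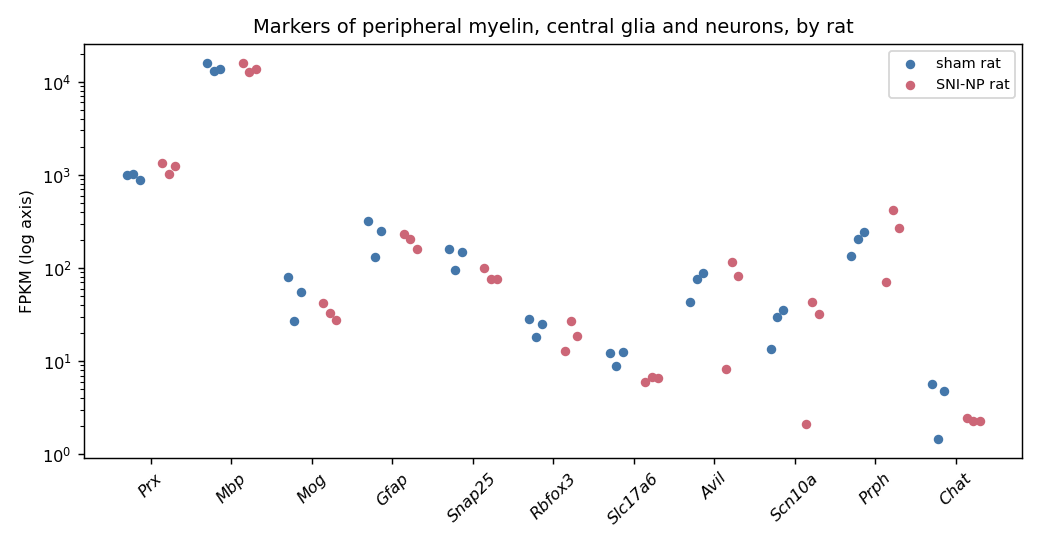
FPKM on a log axis (vertical) of markers of peripheral myelin (Prx), myelin in general (Mbp), central myelin (Mog), astrocytes (Gfap), neurons (Snap25, Rbfox3, Slc17a6), sensory neurons (Avil, Scn10a, Prph) and motor neurons (Chat); each point is 1 rat, sham in blue and SNI-NP in red. Prx lies above Mog in every rat, at 875 to 1329 against 27.0 to 80.0 FPKM, and 1 SNI-NP rat has the lowest points for Avil and Scn10a, at 8.26 and 2.11 FPKM.

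*Tgm1* and *Sprr1a* had the largest fold changes of the set. TGM1 is a transglutaminase that cross-links proteins, and SPRR1A is a small proline-rich substrate of such enzymes; both are best known from the cornified envelope of skin, and SPRR1A also from regenerating axons. *Tgm1* (ENSRNOG00000020136) was counted 3, 7 and 10 times in sham rats but 58, 87 and 89 times in SNI-NP rats, which corresponded to 0.18, 0.394 and 0.582 CPM against 3.34, 4.83 and 5.16 CPM. The lowest SNI-NP rat stood 5.73 times above the highest sham rat. The fitted log2 fold change was 3.50 (SE 0.43), and 3.67 without SNI-NP rat 1. The ratio of the summed counts, 234 against 20, was 11.5, with a 95% interval of 7.26 to 19.1 (exact binomial, counting error only). This interval pools reads over rats and leaves out the spread between them. As the gene was chosen on this contrast, the interval is no test.

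*Sprr1a* (ENSRNOG00000024028) was close to the floor in sham rats, with counts of 1, 3 and 0, and had 14, 13 and 28 counts in SNI-NP rats. These counts gave 0.0600, 0.169 and 0 CPM against 0.805, 0.722 and 1.62 CPM, and the count of 0 allowed up to 0.175 CPM in that library. The groups did not overlap, although the whole sham group rested on 4 counts. The summed counts differed by a ratio of 13.5, with a 95% interval of 4.97 to 51.2 (exact binomial, counting error only). As for *Tgm1*, the interval leaves out the spread between rats and is no test. The fitted log2 fold change of 3.64 (SE 0.81) ranged from 3.07 without sham rat 3 to 4.85 without sham rat 2, and was 3.80 without SNI-NP rat 1. Its relatives *Sprr1b* and *Sprr3* had 0 counts in all 6 libraries. Of the skin-cell markers, *Ivl* had 0 counts in every library, *Lor* had 1, 0 and 5 counts in sham rats and 0 in every SNI-NP rat, *Krt14* had 0, 0 and 1 counts against 3, 0 and 3, and *Krt5* was at 2.73 ± 0.351 and 3.22 ± 0.559 CPM (SD, n = 3 per group). The 7 markers in the table summed to 10.2 to 13.0 CPM in sham and 9.66 to 11.9 CPM in SNI-NP rats, ranges that overlapped.

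Promoters matched 7 of the 10 symbols in the RefSeq table of build GRCr8; *Atf3*, *Jun* and *Gap43* had no entry. The 250 bases before the start of each gene were searched on both strands for the AP-1 motif TGANTCA, the cyclic AMP response element TGACGTCA, its variants TGACATCA and TTACGTCA, the amino acid response element TGATGCAA, the STAT motif TTCCNGGAA and the TATA box TATAAA. The promoters of the 2 genes with the largest fold changes and of the 2 others with a match are given 5′ to 3′ on the strand of the gene, with matches in capitals. *Sprr1a* lies at chr2:180752626-180752875, minus strand, *Tgm1* at chr15:33174268-33174517, minus strand, *Sox11* at chr6:49738795-49739044, minus strand, and *Flrt3* at chr3:148461406-148461655, minus strand.
Sprr1a: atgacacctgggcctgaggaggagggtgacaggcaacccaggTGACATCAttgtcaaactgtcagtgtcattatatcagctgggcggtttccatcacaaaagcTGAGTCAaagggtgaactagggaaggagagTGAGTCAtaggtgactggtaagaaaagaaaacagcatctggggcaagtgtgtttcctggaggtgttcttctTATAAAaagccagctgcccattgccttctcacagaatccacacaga
Tgm1: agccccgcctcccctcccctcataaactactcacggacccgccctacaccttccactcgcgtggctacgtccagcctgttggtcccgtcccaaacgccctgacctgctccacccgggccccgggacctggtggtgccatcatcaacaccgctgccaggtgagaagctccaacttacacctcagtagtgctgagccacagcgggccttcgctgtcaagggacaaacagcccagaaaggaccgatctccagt
Sox11: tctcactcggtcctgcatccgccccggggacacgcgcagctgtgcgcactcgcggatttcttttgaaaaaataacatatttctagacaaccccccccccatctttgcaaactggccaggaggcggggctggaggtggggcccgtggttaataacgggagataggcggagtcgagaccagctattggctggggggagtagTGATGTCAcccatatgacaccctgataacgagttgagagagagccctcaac
Flrt3: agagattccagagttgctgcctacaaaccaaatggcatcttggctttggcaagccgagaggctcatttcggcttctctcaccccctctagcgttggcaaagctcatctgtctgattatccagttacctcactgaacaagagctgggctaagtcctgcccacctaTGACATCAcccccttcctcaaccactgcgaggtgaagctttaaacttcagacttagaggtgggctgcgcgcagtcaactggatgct

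*Sprr1a* held the AP-1 letters TGAGTCA at 147 and 117 bases before the start, the variant TGACATCA at 208 bases and a TATA box at 46 bases. TGANTCA was in 1 of the 7 promoters and in 6.34% of 33469 promoters of this length, and TATAAA was likewise in 1 of the 7 and in 12.9% of all. The variant TGACATCA, which on the other strand reads TGATGTCA, was in 3 of the 7 (*Sprr1a*, *Sox11* at 51 bases and *Flrt3* at 86 bases) and in 3.80% of all promoters. The other motifs were in 0 of the 7, and *Tgm1*, with a fold change close to that of *Sprr1a*, held no match in this window. A match describes letters only and says nothing of binding.

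*Atf3* (ENSRNOG00000003745) encodes a transcription factor that is nearly silent in intact sensory neurons and is widely used as a mark of axotomy. It was at 12.9, 14.8 and 18.5 CPM in sham rats and at 34.3, 40.3 and 38.6 CPM in SNI-NP rats. All 3 SNI-NP rats lay above all 3 sham rats, with a gap larger than the spread within either group. The log2 fold change was 1.29 (SE 0.16), a 2.45-fold difference, with a range of 1.17 to 1.42 over the 6 fits that omit a library and a value of 1.36 without SNI-NP rat 1. In SNI-NP rat 1, the library with the lowest sum of sensory neuron markers, *Atf3* was 1.86 times the highest sham value and that sum was 0.32 times the lowest sham value. In SNI-NP rats 2 and 3 *Atf3* was 2.18 and 2.09 times the highest sham value. The part of sensory neuron content in the *Atf3* difference was not tested.

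*Jun* (ENSRNOG00000026293), which encodes a subunit of the AP-1 transcription factor and a binding partner of ATF3, differed by a small amount and without overlap. Its level was 73.2, 82.0 and 80.8 CPM in sham rats and 91.5, 97.4 and 103 CPM in SNI-NP rats. The lowest SNI-NP rat exceeded the highest sham rat by a factor of 1.12, less than for *Atf3*, *Tgm1* or *Sprr1a*. The log2 fold change was 0.31 (SE 0.10), or 1.24-fold, and leaving out single libraries moved it between 0.23 and 0.35, the higher value being that without SNI-NP rat 1.

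**Figure D2:**
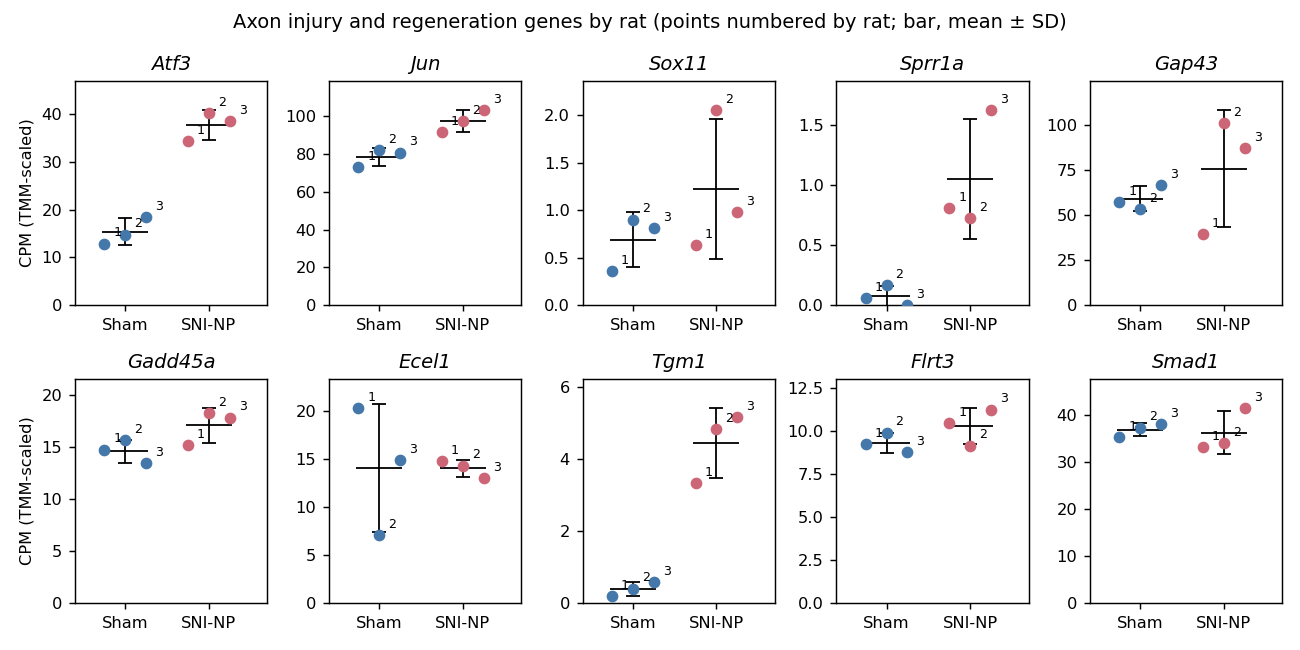
CPM of each of the 10 genes (vertical, from 0) in sham rats (blue) and SNI-NP rats (red); points are numbered by rat, and the bar shows the mean with the SD of 3 rats. Only Atf3, Jun, Sprr1a and Tgm1 have all red points above all blue points, and SNI-NP rat 1 is the lowest of all 6 libraries for Gap43.

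*Sox11* and *Smad1* encode further transcription factors, the first needed for axon growth of sensory neurons and the second a carrier of bone morphogenetic protein (BMP) signals to the nucleus. *Sox11* (ENSRNOG00000030034) had few counts, 6, 16 and 14 in sham and 11, 37 and 17 in SNI-NP rats. At 0.36, 0.901 and 0.815 CPM against 0.633, 2.06 and 0.985 CPM, the groups overlapped and SNI-NP rat 2 stood apart from the other 5 libraries. The log2 fold change of 0.82 (SE 0.57) was 0.22 without SNI-NP rat 2 and 1.13 without SNI-NP rat 1. *Smad1* (ENSRNOG00000018483) was at 35.3, 37.3 and 38.0 CPM in sham rats and at 33.2, 34.0 and 41.5 CPM in SNI-NP rats. Both the lowest and the highest *Smad1* value belonged to SNI-NP rats, and its log2 fold change was -0.03 (SE 0.12) and 0.03 without SNI-NP rat 1, of either sign depending on the library left out and on the correction for transcript length.

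*Gap43* and *Flrt3* encode proteins of the growing axon, a growth cone phosphoprotein and a membrane protein induced in injured sensory neurons. *Gap43* (ENSRNOG00000001528) had the widest spread among SNI-NP rats of the more abundant members. Its CPM values were 57.3, 53.2 and 66.7 in sham rats, and 39.3, 100.9 and 87.3 in SNI-NP rats. SNI-NP rat 1 was the lowest of the 6 rats and the other 2 SNI-NP rats were the highest. The means were 59.1 ± 6.91 and 75.8 ± 32.4 CPM (SD, n = 3 per group), and the log2 fold change of 0.36 (SE 0.31) became 0.67 without SNI-NP rat 1 and 0.10 without SNI-NP rat 2. Over the 3 SNI-NP rats *Gap43* had the same order as the sum of sensory neuron markers, lowest in rat 1 and highest in rat 2. *Atf3*, *Sox11* and *Gadd45a* had this order too. In sham rats *Atf3*, *Tgm1* and *Smad1* rose in the order of that sum, and *Gap43* did not. The part of those markers in the differences of these genes was not tested. *Flrt3* (ENSRNOG00000004874) was at 9.25, 9.92 and 8.79 CPM in sham rats and 10.5, 9.16 and 11.3 CPM in SNI-NP rats. The groups overlapped and the log2 fold change was 0.14 (SE 0.16), which became 0.04 without SNI-NP rat 3, 0.22 without SNI-NP rat 2 and 0.13 without SNI-NP rat 1.

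*Gadd45a* (ENSRNOG00000005615), a stress-induced gene of cell cycle arrest and DNA repair, was at 14.8, 15.7 and 13.5 CPM in sham rats and 15.2, 18.3 and 17.9 CPM in SNI-NP rats. SNI-NP rats 2 and 3 lay above all sham rats and rat 1 within their range, and the log2 fold change was 0.23 (SE 0.14), with 0.14 without sham rat 3 and 0.31 without SNI-NP rat 1. *Ecel1* (ENSRNOG00000019447), which encodes a neuronal membrane peptidase related to endothelin-converting enzyme and is induced by nerve injury, showed no shift of its mean. Its CPM values were 20.4, 7.04 and 14.9 in sham rats and 14.8, 14.3 and 13.0 in SNI-NP rats. The sham rats spread widely around the 3 close SNI-NP values, and the log2 fold change was -0.004 (SE 0.34). It moved to 0.35 without sham rat 1 and to -0.33 without sham rat 2, and was -0.04 without SNI-NP rat 1.

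**Figure D3:**
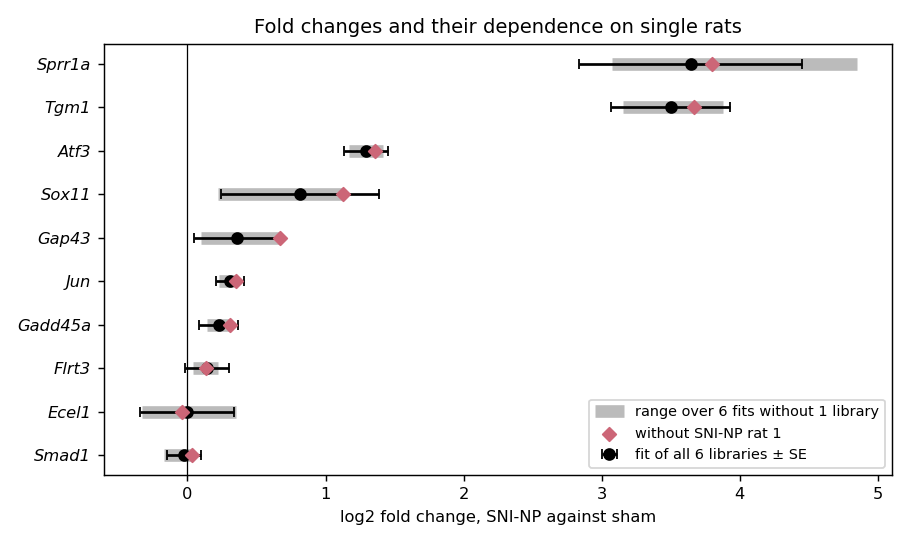
Log2 fold change of SNI-NP against sham rats (horizontal) for each gene; black points with bars are the fit of all 6 libraries with its SE, grey bars the range over the 6 fits that omit 1 library, and red diamonds the fit without SNI-NP rat 1. Sprr1a, Tgm1 and Atf3 lie above 1 over their whole grey bars, while the bars of Ecel1 and Smad1 cross 0.

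Across the set, the log2 fold change was above 0 for 8 of the 10 genes, with a median of 0.33, beside 50.9% of all genes tested and a median of 0.006. The values of all 3 SNI-NP rats lay above those of all 3 sham rats for 4 genes, *Atf3*, *Jun*, *Sprr1a* and *Tgm1*, and the same held for 10.4% of all genes tested. The reverse, all SNI-NP rats below all sham rats, was seen for 0 of the 10 and for 8.15% of all genes. A fold change above 2 was found for 3 genes, *Atf3*, *Sprr1a* and *Tgm1*, beside 1.25% of all genes. As the genes were chosen on this contrast, nothing is read from these counts. Over all 14426 genes, an adjusted p-value under 0.05 was reached by 0 with edgeR's quasi-likelihood test, although 1565 (10.8%) had an unadjusted p-value under 0.05, and by 211 with DESeq2. Of those 1565 genes 45.2% were higher in SNI-NP rats, against 64.9% of 2004 genes when transcript length was corrected for and 27.2% of 1907 genes without SNI-NP rat 1.

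The members differed widely in level per length. In sham rats *Gap43* was the most abundant at 40.4 ± 4.22 FPKM, followed by *Jun* at 25.9 ± 1.98, then *Smad1* at 12.5 ± 0.626 and *Gadd45a* at 11.96 ± 1.12, which did not differ beyond their spread, and *Atf3* at 8.25 ± 1.495 FPKM (SD, n = 3). In SNI-NP rats *Atf3*, at 19.7 ± 2.10 FPKM, stood above *Gadd45a* at 13.6 ± 1.66 and *Smad1* at 11.97 ± 1.605 FPKM (SD, n = 3). *Flrt3* and *Ecel1* were at 2.58 ± 0.207 and 1.94 ± 0.89 FPKM in sham rats, values that overlapped in their spread. *Tgm1* and *Sprr1a* stayed low in SNI-NP rats, at 1.30 ± 0.305 and 1.28 ± 0.61 FPKM (SD, n = 3), so that the largest fold changes belonged to the least abundant genes of the set besides *Sox11*, which was at 0.607 ± 0.379 FPKM.

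Markers of other tissues and cells were read in the same libraries, beside 4.91% of all genes higher and 5.94% lower at an unadjusted edgeR p-value under 0.05. The 6 skeletal muscle genes in the table, all with a log2 fold change above 0, summed to 12.6 to 77.2 CPM in sham rats and to 181, 10.7 and 450 CPM in SNI-NP rats 1, 2 and 3. Of these 6 genes 1 was higher at this threshold, *Myh4*, with a log2 fold change of 3.01. The muscle sum was above that of every sham rat in SNI-NP rats 1 and 3 and below it in SNI-NP rat 2. *Atf3*, *Jun*, *Sprr1a* and *Tgm1* were above every sham rat in all 3 SNI-NP rats. All 4 red blood cell genes were higher at this threshold, with sums of 790 to 1843 CPM in sham and 1697 to 3983 CPM in SNI-NP rats. The granulocyte genes, with *Ltf* near 0, summed to 32.1 to 112 and 83.0 to 168 CPM, and 1 of the 6 tested was higher. The part of muscle and blood cell content in the differences above was not tested. Microglial markers, at 287 to 357 CPM in sham and 301 to 334 CPM in SNI-NP rats, overlapped, and 0 of 8 had an unadjusted edgeR p-value under 0.05 (0 with DESeq2). All 8 spinal neuron genes had a log2 fold change below 0 (median -0.52), and 2 were lower, *Slc17a6*, the vesicular glutamate transporter of excitatory neurons (44.96 ± 8.79 to 26.4 ± 0.935 CPM), and *Snap25* (229 ± 64.8 to 146 ± 26.7 CPM; SD, n = 3 per group). Of 8 motor neuron genes tested 5 were below 0 and 3 above (median -0.38, from -0.96 to 0.92), and 0 passed. Those below were *Slc5a7* (-0.96), *Slc18a3* (-0.72), *Chat* (-0.65), *Chodl* (-0.60) and *Isl1* (-0.17). Those above were *Mmp9* (0.92), *Prph* (0.405) and *Isl2* (0.395). *Isl1* and *Prph* of the motor neuron list are also among the sensory neuron markers. *Isl2*, at 5.28, 10.99 and 12.1 CPM in sham and 0.863, 22.55 and 13.9 CPM in SNI-NP rats, was lowest in SNI-NP rat 1. It was highest in SNI-NP rat 2, as the sum of those markers was. Of the 14 sensory neuron markers 9 were above 0 and 5 below (median 0.015, from -1.33 to 0.405), and 1 was lower. Of 7 astrocyte genes 6 were below 0 and *Slc1a2*, a glutamate transporter, was lower at -1.08, and of 7 oligodendrocyte genes 6 were below 0 (median -0.49). Of 8 Schwann cell genes 7 were above 0, *Pmp2* and *Mbp* among them at 0.02, and *Prx* was higher at 0.36. *Cdh19* was below 0 at -0.80, the largest change of that list, and did not pass. Of 6 genes of meninges and fibroblasts 5 were above 0 and 1 was higher. The part of these cell types in the differences above was not tested.

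**Figure D4:**
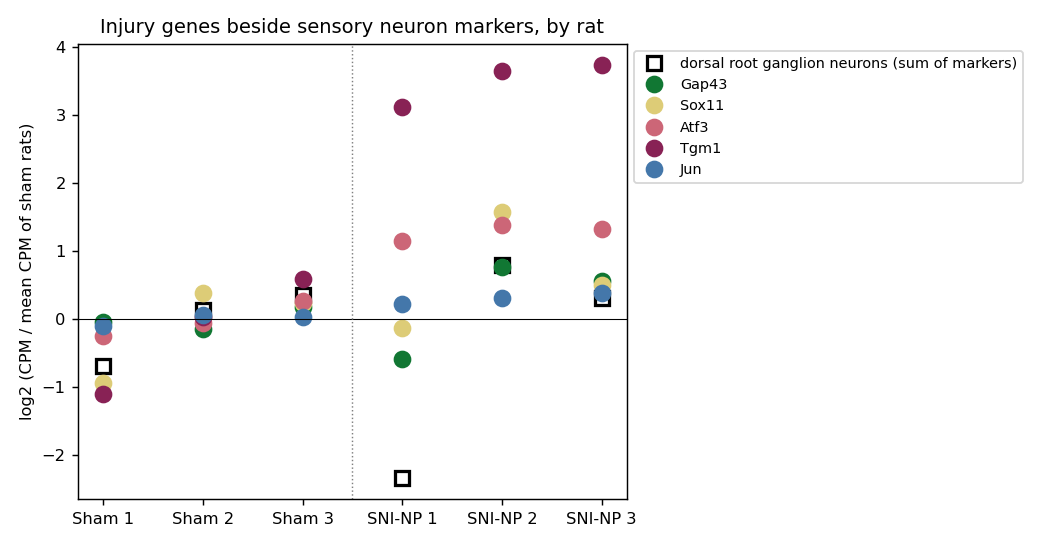
CPM of 5 genes of the set (filled circles) and the summed CPM of 14 dorsal root ganglion neuron markers (open squares), as log2 of the ratio to the mean of the 3 sham rats (vertical), for each rat (horizontal). In SNI-NP rat 1 the marker sum is the lowest point, at 267 CPM, and Gap43 lies below 0, while Atf3, Jun and Tgm1 lie above 0 in all 3 SNI-NP rats.

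Other regeneration-associated genes were read from a list of 40 genes that were no members of the set, 38 of which were tested. Like the marker lists above and the gene lists below, it was drawn up with earlier results of these data known. The p-values and counts of these lists are therefore no independent support. With edgeR, 4 were higher and 2 lower in SNI-NP rats at an unadjusted p-value under 0.05, 32 did not pass, and the median log2 fold change was 0.08. These shares, 4 of 38 higher and 2 of 38 lower, stand beside 4.91% and 5.94% of all genes, and the smallest adjusted p-value in the list was 0.307. The 4 higher genes were *Itga7*, an integrin subunit for laminin (173 ± 11.3 to 241 ± 10.6 CPM, log2 fold change 0.48, SE 0.10), *Csf1*, which encodes a microglial growth factor made by injured neurons (56.8 ± 4.25 to 67.4 ± 1.54 CPM), *Plaur*, the urokinase receptor (1.16 ± 0.481 to 3.17 ± 1.65 CPM), and *Ankrd1* (0.482 ± 0.250 to 1.49 ± 0.711 CPM; SD, n = 3 per group). *Ankrd1* is also a gene of muscle and *Plaur* also of myeloid cells. The part of cells other than neurons in the differences of all 4 genes, *Itga7* and *Csf1* included, was not tested. The lower genes were *Nfil3*, a repressor of regeneration genes (11.2 ± 1.69 to 6.60 ± 0.290 CPM, log2 fold change -0.76, SE 0.17), and *Cacna2d1*, the calcium channel subunit bound by gabapentin (17.5 ± 2.02 to 10.6 ± 2.88 CPM, log2 fold change -0.72, SE 0.21; SD, n = 3 per group). DESeq2 gave an adjusted p-value under 0.05 for *Itga7* (0.00673) and *Nfil3* (0.0267) alone among the 38. The 2 most abundant genes of the list did not pass in edgeR: *Tubb3*, the neuronal tubulin, was at 935 ± 223 and 1073 ± 510 CPM, and *Anxa2* at 655 ± 124 and 765 ± 161 CPM (SD, n = 3 per group).

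Without SNI-NP rat 1, the number of these genes at an unadjusted edgeR p-value under 0.05 was 12 of 38, with 9 higher and 3 lower, beside 3.56% of all 14577 genes of that fit higher and 9.52% lower. *Tubb3* (log2 fold change 0.53), *Tubb2b* (0.70), *Hspb1* (0.60), *Cd44* (0.59), *Adcyap1* (0.80) and *Fabp5* (0.42) were then among the higher genes, and *Csf1* was not. The sensory neuron markers of the libraries in that fit summed to 2353 and 1675 CPM in SNI-NP rats, and to 835, 1490 and 1727 CPM in sham rats. The part of sensory neuron content in these fold changes was not tested. *Chl1*, a cell adhesion gene, was lower at -1.29 and had an adjusted edgeR p-value of 0.0356, as 1.52% of all genes in that fit had one under 0.05. The count of these regeneration-associated genes was 10 without sham rat 2 (5 higher, 5 lower), beside 2134 of all 14593 genes of that fit. It was 4 without each of sham rats 1 and 3 and SNI-NP rats 2 and 3. Over all genes these fits gave 908 of 14616, 1019 of 14616, 1385 of 14584 and 917 of 14592, in that order. *Itga7*, *Nfil3* and *Cacna2d1* passed in every fit without 1 library, and *Csf1* only in that without sham rat 2. *Ankrd1* did not pass without sham rat 1, sham rat 3 or SNI-NP rat 3. *Plaur* did not pass without sham rat 1 or SNI-NP rat 2.

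Among 21 relatives of the members by gene family, 16 were tested, 3 were higher, 3 were lower and 10 did not pass at an unadjusted edgeR p-value under 0.05, beside 4.91% of all genes higher and 5.94% lower. *Jund*, an AP-1 subunit like *Jun*, was at 54.6, 50.3 and 64.8 CPM in sham and 67.9, 83.5 and 81.3 CPM in SNI-NP rats (log2 fold change 0.46, SE 0.13). *Gadd45g*, the relative of *Gadd45a*, was higher at 5.77 ± 0.963 to 8.62 ± 0.816 CPM, and *Ece1* at 177 ± 10.2 to 215 ± 8.83 CPM (SD, n = 3 per group). *Atf2*, *Flrt2* and *Smad9* were lower, with log2 fold changes of -0.41, -0.82 and -0.66. The most abundant relatives, *Atf4* at 262 ± 20.0 and 266 ± 5.86 CPM and *Tgm2* at 221 ± 26.6 and 259 ± 43.4 CPM (SD, n = 3 per group), did not pass. The smallest adjusted edgeR p-value among the relatives was 0.406, and the number at an unadjusted p-value under 0.05 was 3 without sham rats 1 or 3 or SNI-NP rat 2, 2 without SNI-NP rat 3, and 6 without SNI-NP rat 1 (4 higher, 2 lower). These numbers stand beside the counts over all genes given above for the same fits, and 1907 of 14577 without SNI-NP rat 1.

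Of 18 genes that carry BMP signals to or from *Smad1*, 16 did not pass in edgeR, and the 2 that did are a share near the 10.8% of all genes, so that nothing is read from their number. *Chrd*, which encodes the BMP inhibitor chordin, was higher at 7.64 ± 1.94 to 11.2 ± 1.89 CPM (log2 fold change 0.55, SE 0.23), and *Bmpr1b*, which encodes a BMP receptor, was lower at 3.86 ± 1.12 to 2.03 ± 0.252 CPM (log2 fold change -0.92, SE 0.29; SD, n = 3 per group). Their adjusted p-values were 0.458 and 0.436, and *Chrd* no longer passed the unadjusted threshold with RLE or upper-quartile scaling, or without sham rat 1, sham rat 3, SNI-NP rat 2 or SNI-NP rat 3. The target *Id3*, at 81.5 ± 9.86 and 89.0 ± 9.86 CPM, and the receptor *Bmpr1a*, at 51.7 ± 7.14 and 45.7 ± 10.9 CPM (SD, n = 3 per group), were the most abundant and did not pass. The count was 0 without sham rat 1, 1 without sham rat 3, SNI-NP rat 2 or SNI-NP rat 3, and 3 without SNI-NP rat 1 (1 higher, 2 lower). The counts over all genes moved between these fits as well, as given above.

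*Atf3* is also a target of the integrated stress response, a programme that starts when translation is slowed, and *Jun* is also an immediate early gene, a class induced by neuronal activity. In the stress list 9 genes were tested, and 1 higher and 1 lower stand beside 4.91% and 5.94% of all genes. *Ppp1r15a*, a phosphatase subunit that ends the response, was higher (62.4 ± 3.07 to 80.9 ± 4.30 CPM, log2 fold change 0.37, SE 0.09), *Vldlr* was lower (23.2 ± 2.40 to 18.4 ± 1.34 CPM) and 7 did not pass, *Nupr1* among them at 66.2 ± 24.5 and 74.2 ± 8.06 CPM (SD, n = 3 per group). Of the 8 immediate early genes tested, 0 passed at an unadjusted edgeR p-value under 0.05, and with DESeq2 0 passed unadjusted and 0 adjusted. Their median log2 fold change was -0.18, and the most abundant, *Nr4a1* and *Egr2*, were at 69.9 ± 9.66 and 71.1 ± 19.9 CPM in sham rats and at 84.8 ± 18.6 and 82.7 ± 15.4 CPM after SNI (SD, n = 3 per group).

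**Figure D5:**
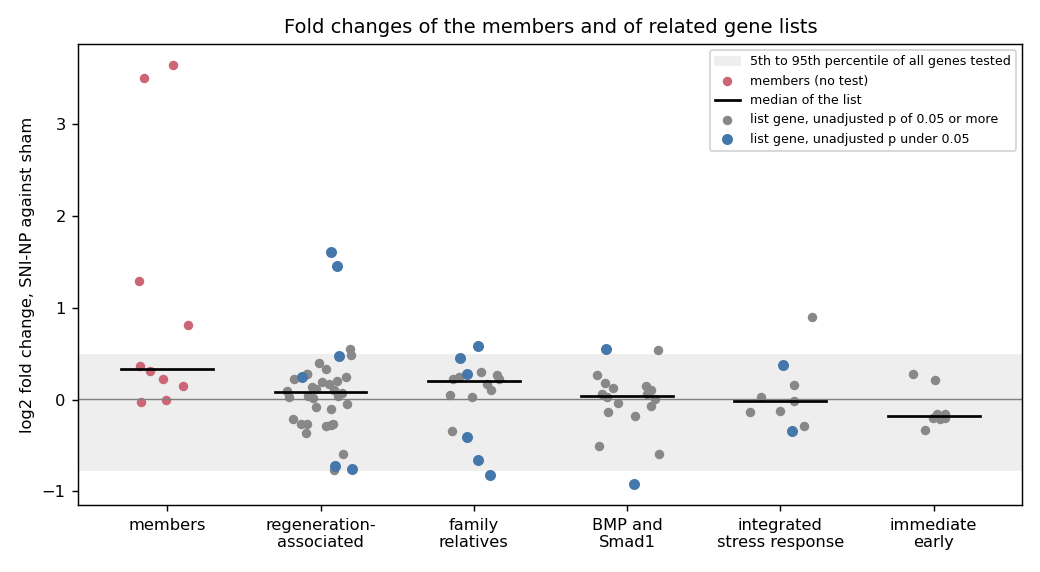
Log2 fold change of SNI-NP against sham rats (vertical) of each tested gene in the set and in 5 related lists; blue points have an unadjusted edgeR p-value under 0.05, grey points do not, members in red carry no test, black bars are medians and the grey band spans the 5th to 95th percentile of all genes, from -0.77 to 0.49. The median of the members is 0.33 and that of the 38 other regeneration-associated genes 0.08.

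Among genes with a mean of at least 1 CPM, the 5 whose levels followed the mean profile of the 10 members most closely over the 6 libraries were *Folr1*, *RGD1561916*, *AABR07029596.1*, *Tjp3* and *Ttc25*, by root mean square distance of centred log2 CPM. The distances were 0.0524, 0.108, 0.122, 0.13 and 0.141. *Folr1*, which encodes a folate receptor, was at 2.28, 2.54 and 2.503 CPM in sham and at 3.57, 4.67 and 4.75 CPM in SNI-NP rats. It and the other 4 were chosen for this likeness, so their separation of the groups is no result.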

How the data were processed

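Gene expression in spinal cord was measured by RNA-seq in 3 sham and 3 SNI-NP rats, grouped by sample title. For 22050 genes the authors deposited unnormalized estimated counts together with FPKM. Reads were mapped to the release they call Rat6 with only unique sequences kept; FastQC, STAR and HTSeq are listed in the submitters' processing notes, and versions, annotation and strand setting are not given in the sources used here. Of genes with a count, 11.5% had a count that was not whole, but 0 of the 10 members.

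Counts were rounded and tested over 14426 genes with edgeR 4.0.16 in R 4.3.3 (filterByExpr, TMM scaling, quasi-likelihood test, Benjamini-Hochberg adjustment); CPM is TMM-scaled, and centred log2 CPM used a prior count of 2. The common coefficient of variation was 0.223. The SE of a log2 fold change is its absolute value divided by the square root of the F statistic of the quasi-likelihood test. For the members it serves as a description and not as a test. The test was checked on simulated counts. A count of 0 allowed 0.167 to 0.18 CPM (3 counts), counting error only. FPKM served for levels between genes and for transcript length.

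Alternatives were DESeq2 1.42.0, other scaling (RLE, upper quartile), no filter or at least 10 counts per sample, the replicate block, loess length offsets, FPKM ratios and leaving out each library. The members and lists were chosen with earlier results of these data known. Named genes were all members and the 5 nearest profiles. In the regeneration, family, BMP, stress and immediate early lists, genes with an unadjusted edgeR p-value under 0.05 and the 2 most abundant were named. Other names were chosen after their values were seen. Promoters are from RefSeq, GRCr8, another build than that of the reads. List symbols without a row in the table, 8 in all, were left out. Some marker genes are not reported here.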

Additional observations from a re-analysis of the deposited data

How the results depend on the processing

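The precision is limited by 3 libraries a group and, for *Sprr1a*, *Tgm1* and *Sox11*, by few counts. The median log2 fold change of the members, 0.33, kept its sign in all settings run and was 0.512 without SNI-NP rat 1 and 0.22 without SNI-NP rat 2. Genes with both a fold change over 2 and an adjusted p-value under 0.05 numbered 0 with edgeR and 97 with DESeq2, and ranged from 0 to 206 over the fits without 1 library (206 without SNI-NP rat 1, 2 without sham rat 2). With at least 10 counts in every sample, 7 members remained in the test and 5 of them had a log2 fold change above 0. The unadjusted threshold was passed by 1565 genes, from 908 to 2134 over the fits without 1 library. The regeneration-associated genes at that threshold numbered 6, from 4 to 12 over those fits, and 9 with the replicate number as a block or 10 with length offset and block. Family relatives numbered 6, from 2 to 6 over those fits. BMP and Smad1 pathway genes numbered 2, from 0 to 3 over those fits, and 1 with RLE and 1 with upper-quartile factors. *Csf1*, *Ece1* and *Chrd* no longer passed with the block, nor *Smad9* with length offset.

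The log2 fold change of *Ecel1*, -0.004, was 0.006 with upper-quartile factors, 0.107 with the replicate block, 0.236 with length offset, 0.326 with both, and from -0.326 to 0.349 over the fits without 1 library. That of *Smad1*, -0.025, was 0.033 with length offset, 0.028 with length offset and block, and from -0.168 to 0.034 over those fits. The other 8 members stayed above 0 in every setting that could be fitted. For these changes the cause was not tested. Same-numbered rats did not deviate together: the correlations of their deviations over genes were 0.214, -0.143 and 0.054, and only sham rat 1 correlated best with its own number, so the numbers were not taken as pairs.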
